A study of Homo sapiens with 23 samples.

Results

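Clade B serpins are intracellular protease inhibitors of epithelial and blood cells. A serpin offers a protease a reactive loop as bait, and once the loop is cut the serpin snaps into a new shape and traps the protease. Several of them are best known from squamous epithelium, and members of the clade have been studied in mammary tumors. Many of their genes lie side by side on chromosome 18, and a smaller group lies on chromosome 6. The genes described here are SERPINB1, SERPINB2, SERPINB3, SERPINB4, SERPINB5, SERPINB7, SERPINB8, SERPINB9 and SERPINB13, 9 genes that were picked with earlier results of these arrays in view. No single comparison defined the list, and the probe set of each gene was chosen by its mean log2 signal over all arrays. A gene was followed on probe sets that the platform annotation assigns to it alone, and its main probe set was the one with the highest mean log2 signal over all arrays. By this rule 8 of the 9 genes had a main probe set, among 19775 genes with one, and they had 21 probe sets in all. SERPINB2 had no probe set in that annotation, so it is described apart and is not in the counts of members.

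RNA was measured in MCF10A-ER-Src cells, a line of non-transformed human mammary epithelial cells that carries a fusion of the Src kinase with an estrogen receptor fragment that binds ligand. Tamoxifen (TAM, 1 µM of the 4-hydroxy form) switches this kinase on, and ethanol (EtOH) is its vehicle. All cells were kept in medium with horse serum, EGF, hydrocortisone, cholera toxin and insulin, and were transfected with 25 nM of an siRNA pool 48 h before treatment. The pool was either directed against STAT3 (siSTAT3), the transcription factor that links Src and IL6 to the inflammatory program of these cells, or non-targeting (siNEG, called siSCM in the methods). With treatments of 24 and 4 h this gave 8 groups: siSTAT3 TAM, siSTAT3 EtOH, siNEG TAM and siNEG EtOH at each time. Each group had 3 arrays, except that 2 arrays, replicates 2 and 3, of siSTAT3 TAM at 24 h were analysed here. Replicates are called biological in the methods, but no label says that they were separate cultures, so the p-values measure the spread between these arrays. The ER-Src cells are 1 line, and the siRNA left some STAT3 RNA. In a bulk sample, fewer cells that express a gene and less RNA per cell cannot be told apart.

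The signal is the MAS5 value of a probe set in arbitrary units on a linear scale. Values of different genes come from different probes and are not comparable in level. The array medians were 73.5 to 85.3 units, and between 44.6% and 46.9% of all probe sets exceeded 100 units. STAT3 itself averaged 400.1 units with siSTAT3 and TAM at 24 h and 398 with siSTAT3 and EtOH at 24 h, against 6119 and 4125 units in the matching siNEG groups. At 4 h its means were 425 and 331 units with siSTAT3, against 5576 and 4022 with siNEG. All 5 measured basal mammary markers reached 100 units in every group, including KRT5 and KRT14. Of the markers of other cells, 4 of 7 luminal, 2 of 6 leukocyte, 2 of 5 fibroblast and 2 of 4 endothelial ones reached 100 units in a group. PTPRC, CD3E, CDH5 and COL3A1 did not, with group means of at most 43.5, 73.9, 32.7 and 16.8 units, while DCN, CD14 and PECAM1 reached 6858, 845 and 422 units. Some of these lists moved with the groups. The summed fibroblast signal with TAM at 24 h was 2881 to 2942 units in siSTAT3 cells, against 6794 to 7841 units in siNEG cells, and the summed luminal signal was 25466 to 32015 units in siSTAT3 cells, against 16243 to 18607 units in siNEG cells. Over all arrays the sums ran between 2034 and 7841 units for fibroblast, 594 and 1245 for leukocyte and 168 and 529 for endothelial markers. Between siSTAT3 and siNEG 1 of the 5 fibroblast markers was called higher and 1 lower in each of the 4 settings. Of all genes, 1.46% to 6.77% were called lower in these settings. With TAM 9.72% of all genes were called higher at 24 h and 4.69% at 4 h, and with EtOH at 4 h 1.88% were. With TAM in siNEG cells at 24 h 2 of the 7 luminal markers were called lower, where 9.31% of all genes were. The part of these markers in the serpin values was not tested. Unless stated otherwise, differences are on the log2 scale with nothing added, come from a limma model with 1 mean for each of the 8 groups, and are given with their standard error (SE). Adjusted p is the Benjamini-Hochberg value over all 54675 probe sets of a comparison, and a gene is called when the adjusted p of its main probe set is below 0.05.

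The bases before the start site are shown for the 4 members whose signals moved most with TAM, because SERPINB3 and SERPINB4 are nearly the same there and the other promoters differ from them. Each run is the 250 bases before the RefSeq start of the gene on GRCh38.p14, read 5′ to 3′ on the strand of the gene. For SERPINB3 (chr18:63661894-63662143, minus strand) and SERPINB4 (chr18:63644257-63644506, minus strand) the capitals mark the positions where they differ from each other.
SERPINB3: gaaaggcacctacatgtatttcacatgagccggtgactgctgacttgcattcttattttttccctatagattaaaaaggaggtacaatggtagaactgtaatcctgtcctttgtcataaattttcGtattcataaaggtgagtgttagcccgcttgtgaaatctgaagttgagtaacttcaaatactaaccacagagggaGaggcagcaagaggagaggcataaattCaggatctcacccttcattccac
SERPINB4: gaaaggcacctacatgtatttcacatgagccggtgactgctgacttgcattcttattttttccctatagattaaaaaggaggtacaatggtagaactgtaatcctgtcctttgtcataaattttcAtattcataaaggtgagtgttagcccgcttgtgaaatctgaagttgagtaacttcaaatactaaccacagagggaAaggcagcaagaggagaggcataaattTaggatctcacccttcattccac
The runs differed at 3 of 250 bases, which lie 125, 50 and 23 bases before the start, and were 98.8% identical. For SERPINB1 (chr6:2841864-2842113, minus strand) the capitals mark a match to the STAT motif TTCNNNGAA, and for SERPINB13 (chr18:63587093-63587342, plus strand) a match to the AP-1 motif TGANTCA. STAT3 binds motifs of the first kind, and FOS and JUN dimers bind motifs of the second kind.
SERPINB1: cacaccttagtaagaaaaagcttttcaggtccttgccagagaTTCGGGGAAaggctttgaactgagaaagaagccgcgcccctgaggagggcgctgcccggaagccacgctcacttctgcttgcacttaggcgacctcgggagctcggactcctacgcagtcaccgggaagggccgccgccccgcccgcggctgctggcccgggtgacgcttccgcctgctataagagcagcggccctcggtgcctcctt
SERPINB13: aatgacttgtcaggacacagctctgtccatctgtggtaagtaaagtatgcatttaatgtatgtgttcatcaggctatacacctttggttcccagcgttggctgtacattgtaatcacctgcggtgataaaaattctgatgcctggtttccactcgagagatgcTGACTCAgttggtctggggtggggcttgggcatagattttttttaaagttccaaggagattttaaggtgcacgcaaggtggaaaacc
Both motifs were searched on both strands, and each reads the same way on either strand. The STAT match of SERPINB1 begins 208 bases before the start, and the AP-1 match of SERPINB13 begins 87 bases before it. Neither motif was found in the windows of SERPINB3, SERPINB4 and SERPINB9. Among the 9 genes, 3 had a STAT match (SERPINB1, SERPINB7 and SERPINB8) and 5 had an AP-1 match (SERPINB2, SERPINB5, SERPINB7, SERPINB8 and SERPINB13), in 11 windows because SERPINB7 has several starts. By window, 3 of the 11 held the STAT motif and 6 of the 11 the AP-1 motif. In all 35116 windows of this length, 6.57% held the STAT motif and 6.57% the AP-1 motif. A match describes these letters and does not show that a factor binds there.

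**Figure D1:**
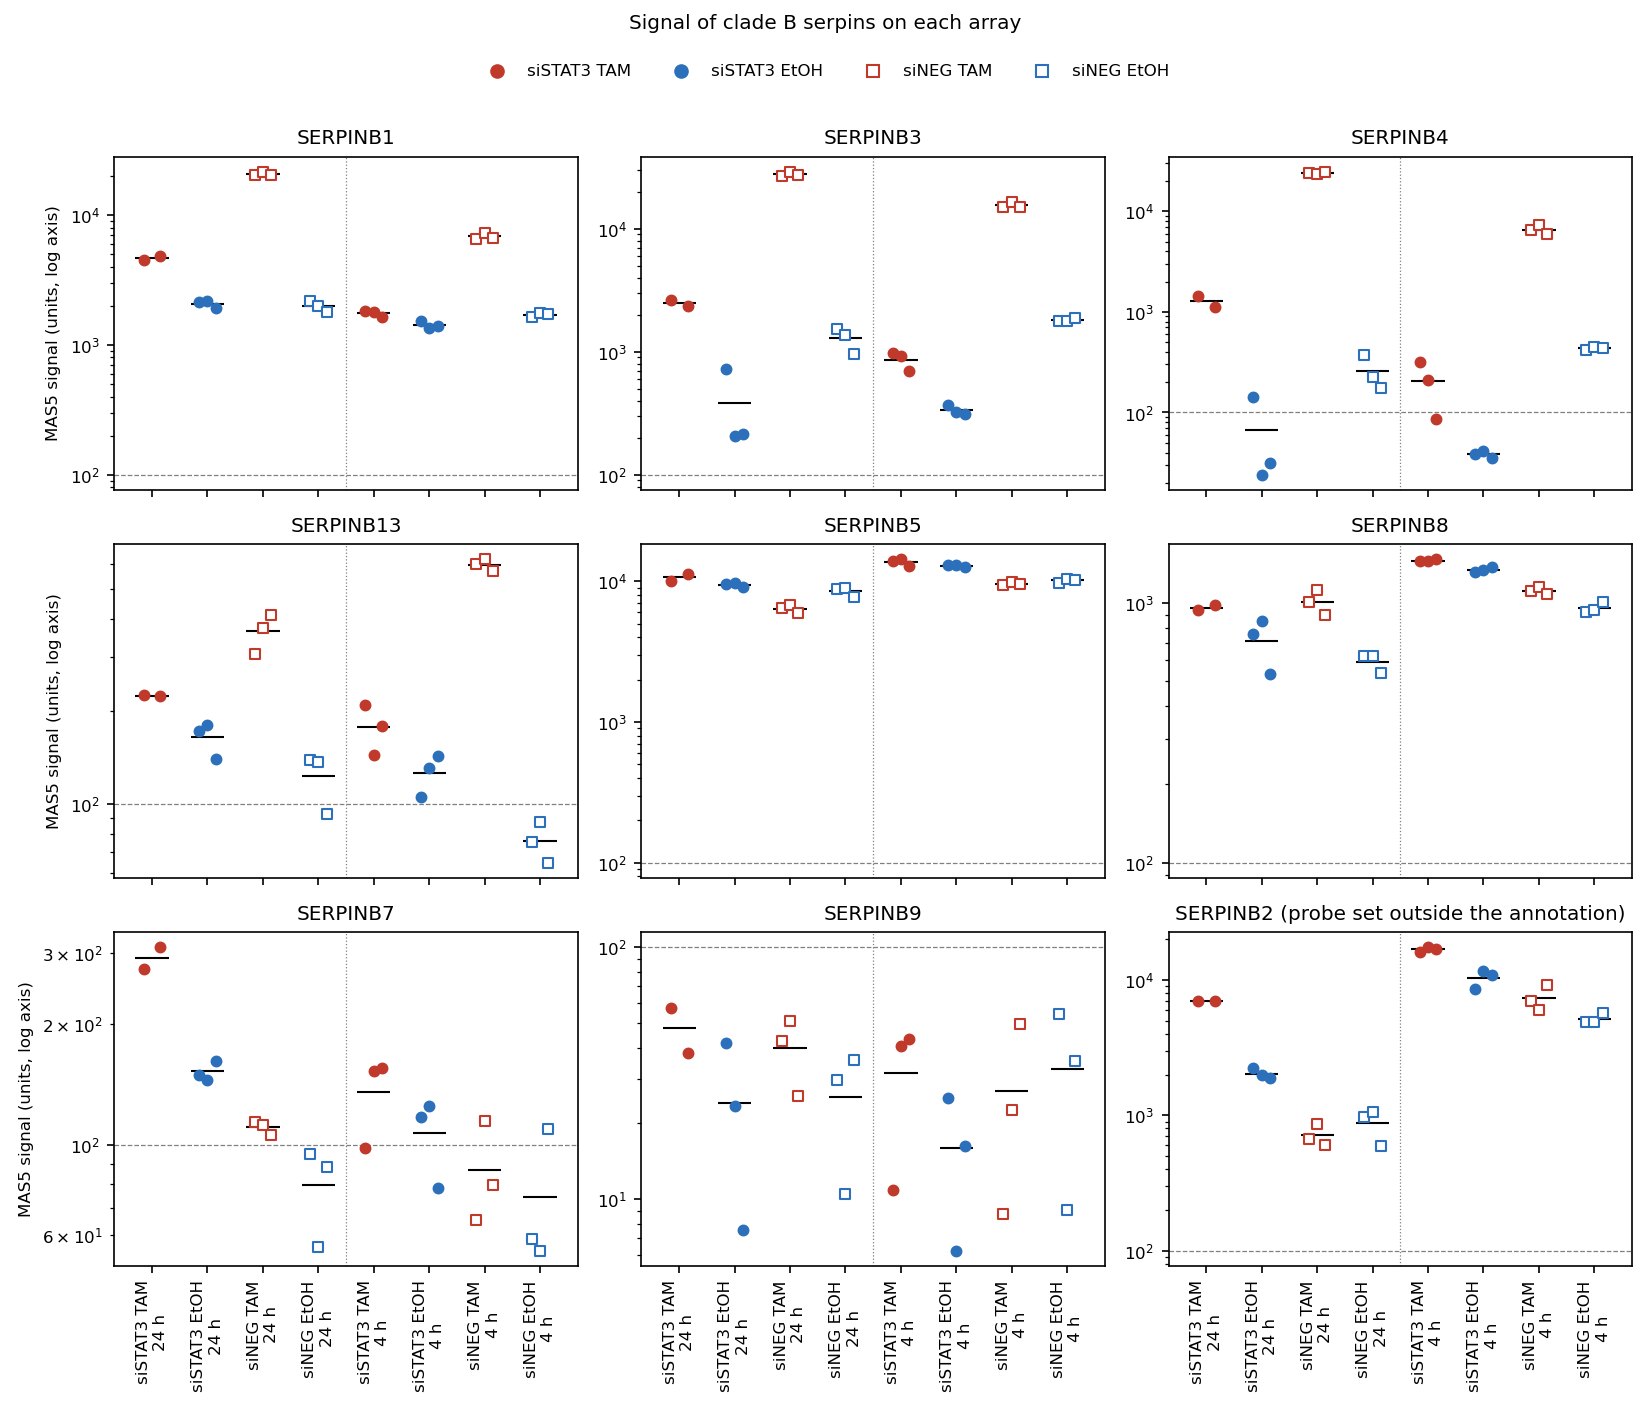
Signal of each clade B serpin on every array (MAS5 units, log axis), with siSTAT3 as filled circles, siNEG as open squares, TAM in red and EtOH in blue. Black bars are group means, the dashed line is 100 units, and the vertical axis differs between genes. The SERPINB1, SERPINB3, SERPINB4 and SERPINB13 arrays of siNEG TAM lie above all other arrays of the same time, and SERPINB9 stays at or below 57.3 units throughout.

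The first question was how far Src activation changed each serpin in cells with and without STAT3 depletion. SERPINB3 and SERPINB4 showed the largest differences of the members. They are the squamous cell carcinoma antigens, near-identical neighbors of which SERPINB3 inhibits cysteine cathepsins and SERPINB4 inhibits chymotrypsin-like serine proteases. In siNEG cells at 24 h, SERPINB3 had 26790.2, 29127 and 27270.0 units with TAM, against 1544, 1365 and 960.0 units with EtOH. The arrays did not overlap, and the difference was 4.45 (SE 0.33, adjusted p = 5.44e-08), a 21.9-fold higher level. At 4 h it had 14936, 16498 and 14971 units with TAM, against 1768, 1796 and 1869 units with EtOH, a difference of 3.09 (SE 0.33, adjusted p = 2.42e-05). SERPINB4 went the same way with a larger fold. At 24 h it had 24007, 23292 and 24762 units with TAM in siNEG cells, against 373, 226 and 177 units with EtOH, which is 97.5-fold higher (log2 difference 6.61, SE 0.52, adjusted p = 1.17e-07). At 4 h the values were 6502, 7279 and 5957 units with TAM, against 417, 447 and 438 units with EtOH, or 15.1-fold higher (3.92, SE 0.52, adjusted p = 0.000241).

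STAT3 depletion lowered the signals of SERPINB3 and SERPINB4 before as well as after Src activation, and TAM still raised both at 24 h. SERPINB3 in siSTAT3 cells at 24 h had 2630.3 and 2338 units with TAM, against 725, 207 and 216 units with EtOH, a difference of 2.96 (SE 0.37, adjusted p = 0.00024). SERPINB4 there had 1439 and 1109 units with TAM, against 144, 24.0 and 31.4 units with EtOH, a difference of 4.73 (SE 0.58, adjusted p = 0.000213). Except for the 144 units, the EtOH values of SERPINB4 in siSTAT3 cells lie below the array medians and near the floor, so the sizes of the differences that rest on them, interactions included, are uncertain. In both genes replicate 1 of siSTAT3 EtOH at 24 h stood above the other EtOH arrays of its group. Without that array the TAM differences were 3.55 for SERPINB3 and 5.53 for SERPINB4, and both were called. Both calls were lost when only the groups compared were fitted, which leaves fewer arrays to estimate the spread.

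At 4 h SERPINB3 in siSTAT3 cells had 975, 918 and 701 units with TAM, against 371, 324 and 314 units with EtOH. The arrays did not overlap, but the difference of 1.35 (SE 0.33, 95% interval 0.66 to 2.05) had an adjusted p of 0.0887. SERPINB4 had 315, 209 and 86.3 units with TAM, against 38.8, 41.3 and 35.3 units with EtOH, a difference of 2.22 (SE 0.52, 95% interval 1.12 to 3.31, adjusted p = 0.0719). Both passed the threshold when 50 units were added before the log2 step and when probe sets below 100 units in every group were left out.

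siSTAT3 against siNEG gave the largest falls of all members in these 2 genes. With TAM at 24 h, SERPINB3 averaged 2484 ± 207 units in siSTAT3 cells (SD, n = 2) and 27729 ± 1234 units in siNEG cells (SD, n = 3), a difference of -3.48 (SE 0.37, adjusted p = 3.36e-06), and at 4 h the difference was -4.17 (SE 0.33, adjusted p = 3.19e-07). SERPINB4 differed by -4.25 at 24 h (SE 0.58, adjusted p = 5.95e-05) and by -5.20 at 4 h (SE 0.52, adjusted p = 4.25e-06). The falls were present in cells that had received EtOH only. With EtOH, siSTAT3 minus siNEG was -1.99 at 24 h (SE 0.33, adjusted p = 0.00279) and -2.43 at 4 h (SE 0.33, adjusted p = 0.000317) for SERPINB3, and -2.37 at 24 h (SE 0.52, adjusted p = 0.0226) and -3.50 at 4 h (SE 0.52, adjusted p = 0.000761) for SERPINB4. The SERPINB3 arrays of siSTAT3 EtOH did not overlap with those of siNEG EtOH at either time, nor did those of SERPINB4. The SERPINB4 call at 24 h with EtOH was lost at the limits of the study's methods and without any of 4 single arrays, with values of -2.43 to -1.87, and both 24 h calls with EtOH were lost when only the groups compared were fitted.

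The interaction is here the TAM difference of siSTAT3 cells from which the TAM difference of siNEG cells was subtracted. For SERPINB3 it was -1.50 at 24 h (SE 0.49, 95% interval -2.54 to -0.45, adjusted p = 0.122) and -1.74 at 4 h (SE 0.46, 95% interval -2.72 to -0.76, adjusted p = 0.182). For SERPINB4 it was -1.88 at 24 h (SE 0.78, 95% interval -3.52 to -0.24, adjusted p = 0.259) and -1.70 at 4 h (SE 0.73, 95% interval -3.25 to -0.15, adjusted p = 0.587). None of these 4 values passed, so a different fold of induction was not established for SERPINB3 or SERPINB4 in the model with nothing added. All 4 passed with 50 units added before the log2 step. Added units shrink a TAM difference most where the EtOH signals are low, as in siSTAT3 cells. Those passes therefore do not settle whether the fold differed. Without replicate 1 of siSTAT3 EtOH at 24 h the 24 h interactions were -0.90 for SERPINB3 and -1.08 for SERPINB4, neither of them called, while that of SERPINB3 at 4 h kept its value of -1.74 and became called. The SERPINB3 interaction at 24 h was also called without replicate 2 of that group, at -1.81.

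The main probe sets of SERPINB3 and SERPINB4 belong to kinds whose probes can bind more than 1 transcript, so the shares of the 2 genes in these signals cannot be told apart. The other probe set of SERPINB3 gave 5.08 for TAM in siNEG cells at 24 h and 3.11 at 4 h. From high to low, both genes ran siNEG TAM at 24 h, siNEG TAM at 4 h, siSTAT3 TAM at 24 h and siNEG EtOH at 4 h, with no overlap between neighbors. Below that, each of siNEG EtOH at 24 h, siSTAT3 TAM at 4 h, siSTAT3 EtOH at 24 h and siSTAT3 EtOH at 4 h overlapped with its neighbor.

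**Figure D2:**
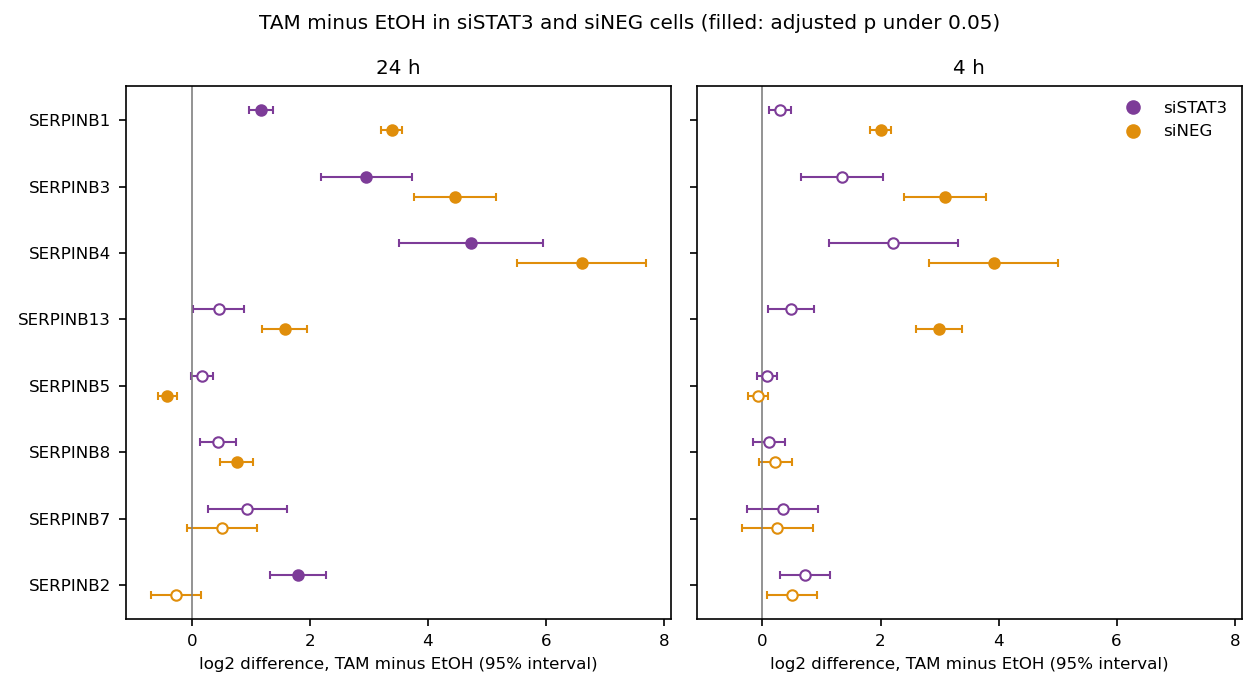
Log2 difference of TAM minus EtOH with its 95% interval for each gene, at 24 h on the left and 4 h on the right, with siSTAT3 in purple above siNEG in orange. Filled points passed an adjusted p of 0.05. SERPINB1, SERPINB3 and SERPINB13 have siSTAT3 intervals clear of the siNEG ones at both times, narrowly for SERPINB3 at 24 h. Those of SERPINB2 and SERPINB5 are clear at 24 h, while the SERPINB4 intervals overlap. The SERPINB3 interactions were not called. SERPINB9, with signals of at most 57.3 units, is not plotted.

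SERPINB1, an inhibitor of neutrophil elastase and related proteases of neutrophil granules, rose with TAM in siNEG cells and its rise differed with siSTAT3. At 24 h it had 20444, 21518 and 20444 units with TAM in siNEG cells, against 2179, 2002 and 1804 units with EtOH, or 10.5-fold higher (3.39, SE 0.09, adjusted p = 3.49e-13). At 4 h it had 6572, 7229 and 6698 units with TAM, against 1636, 1751 and 1737 units with EtOH (2.00, SE 0.09, adjusted p = 1.59e-09). Its TAM arrays in siNEG cells lay above every other SERPINB1 array of the same time. In siSTAT3 cells at 24 h it had 4509 and 4858 units with TAM, against 2150.4, 2175 and 1909 units with EtOH, a called difference of 1.17 (SE 0.10, adjusted p = 4.94e-06). At 4 h the values were 1811, 1784 and 1648 units with TAM, against 1526, 1349.9 and 1399.5 units with EtOH, a difference of 0.30 (SE 0.09, 95% interval 0.11 to 0.48, adjusted p = 0.187).

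The interaction of SERPINB1 was -2.21 at 24 h (SE 0.13, adjusted p = 3.12e-08) and -1.70 at 4 h (SE 0.12, adjusted p = 3.1e-06). On its main probe set SERPINB1 gave no called difference between siSTAT3 and siNEG with EtOH: 0.06 at 24 h (95% interval -0.12 to 0.24) and -0.26 at 4 h (95% interval -0.44 to -0.08, adjusted p = 0.128). At 4 h 1 of its 4 probe sets was called lower with siSTAT3 in EtOH, at -0.65 (SE 0.12, adjusted p = 0.00432). With TAM the siSTAT3 level was lower, by -2.15 at 24 h (SE 0.10, adjusted p = 1.21e-10) and -1.97 at 4 h (SE 0.09, adjusted p = 5.89e-10). The TAM effect was larger at 24 h than at 4 h in both kinds of cell, by 1.39 in siNEG cells (SE 0.12, adjusted p = 2.21e-06) and 0.88 in siSTAT3 cells (SE 0.13, adjusted p = 0.00361). The siSTAT3 value was called on 2 of the 4 probe sets (0.50 to 0.88), and the siSTAT3 rise at 24 h on 3 of the 4 (0.73 to 1.17). As the mean of all 4 both were called. Both siSTAT3 calls were lost when only the groups compared were fitted. All 4 probe sets of SERPINB1 rose with TAM in siNEG cells at both times, by 3.24 to 4.64 at 24 h and 2.00 to 2.33 at 4 h. Their interactions were also called on all 4, at -3.91 to -2.14 at 24 h and -2.10 to -1.70 at 4 h. The groups that lay next to each other below siSTAT3 TAM at 24 h overlapped, down to siSTAT3 EtOH at 4 h, which lay below the rest.

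SERPINB13, an inhibitor of cathepsins L and K known from keratinocytes, was the member whose rise on the main probe set was larger at the early time. At 24 h it had 307, 374 and 410.4 units with TAM in siNEG cells, against 139.6, 137 and 93.2 units with EtOH, a difference of 1.57 (SE 0.18, adjusted p = 1.1e-05). At 4 h it had 601, 622 and 569 units with TAM, against 75.6, 87.4 and 64.6 units with EtOH, a difference of 2.99 (SE 0.18, adjusted p = 5.72e-08). The TAM effect at 24 h minus that at 4 h was -1.41 (SE 0.26, adjusted p = 0.00346). This value was called on 1 of 6 probe sets and positive on 2 (-2.33 to 1.75). As the mean of all 6 it was -0.33 and was not called. In siSTAT3 cells at 24 h SERPINB13 had 226 and 224 units with TAM, against 173, 181 and 141 units with EtOH, a difference of 0.45 (SE 0.20, 95% interval 0.02 to 0.88). At 4 h it had 210.1, 144 and 179 units with TAM, against 105, 131 and 143 units with EtOH, a difference of 0.49 (SE 0.18, 95% interval 0.10 to 0.87). Neither passed, with adjusted p of 0.375 at 24 h and 0.379 at 4 h.

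The interaction of SERPINB13 was -1.12 at 24 h (SE 0.27, adjusted p = 0.0261) and -2.50 at 4 h (SE 0.26, adjusted p = 0.000131). At 4 h it was called on 3 of its 6 probe sets and was positive on 2 (-4.76 to 0.80), and as the mean of all 6 it was -1.63 and not called. With TAM, siSTAT3 minus siNEG was -0.68 at 24 h (SE 0.20, adjusted p = 0.0358) and -1.76 at 4 h (SE 0.18, adjusted p = 6.1e-06). These TAM values were called on 2 of the 6 probe sets at 24 h and 3 at 4 h, and positive on 0 at either time. As the mean of all 6 the value was -1.04 at 24 h, not called, and -1.45 at 4 h, called. With EtOH at 4 h the sign on the main probe set was the other way, with 105, 131 and 143 units in siSTAT3 cells, against 75.6, 87.4 and 64.6 units in siNEG cells (0.74, SE 0.18, adjusted p = 0.0343). This EtOH difference was called on 1 of the 6 probe sets and positive on 3 (-1.26 to 2.45). As the mean of all 6 it was 0.18 and was not called. Both 24 h calls were lost at the limits of the study's methods, which ask for an unadjusted p under 1e-04 and an absolute log2 value above 0.5. Leaving out any of 7 single arrays ended the call of the 24 h interaction (-1.13 to -0.93), and any of 4 ended that of the 24 h difference with TAM (-0.69 to -0.59) or of the 4 h difference with EtOH (0.63 to 0.74). Of its 6 probe sets, 4 rose with TAM in siNEG cells at 4 h and 2 at 24 h, and the second brightest gave 3.54 at 4 h and 2.85 at 24 h. The 2 faintest SERPINB13 probe sets passed in neither comparison, with 1.74 and 0.82 at 24 h and 0.59 and -0.93 at 4 h.

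**Figure D3:**
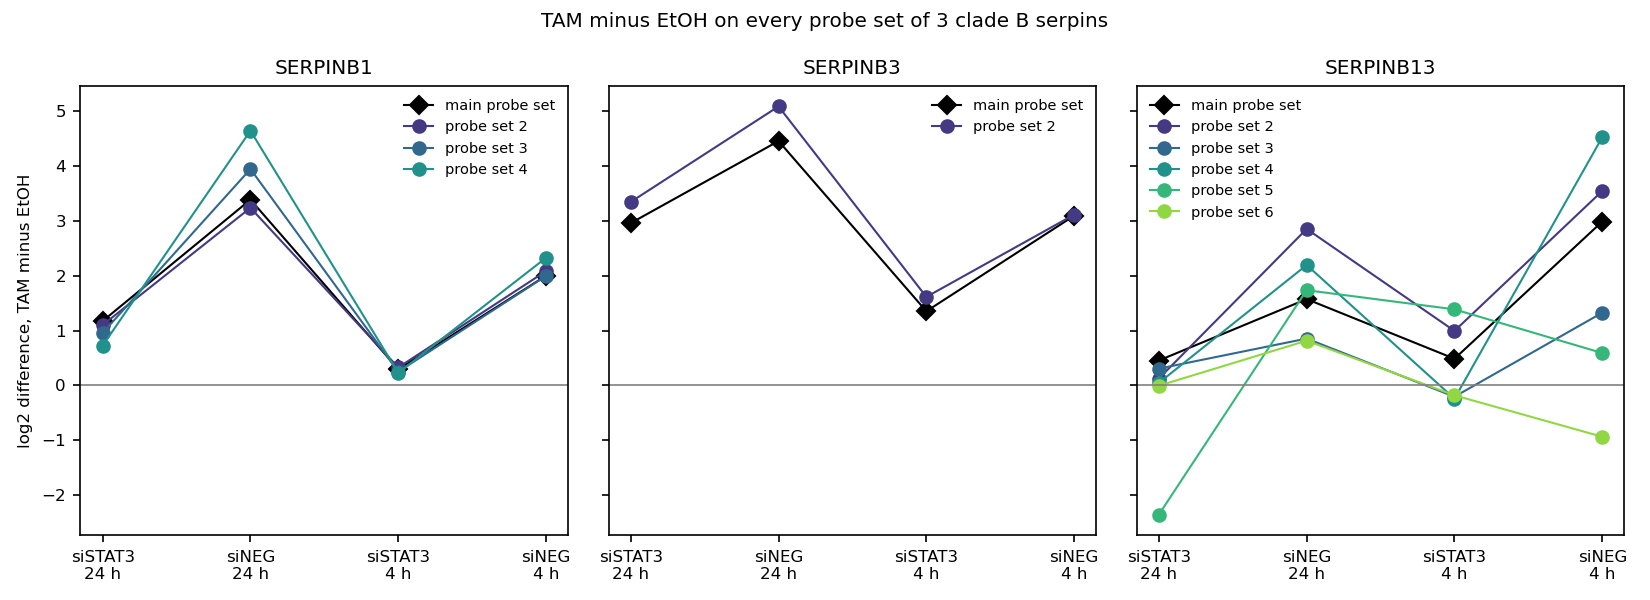
Log2 difference of TAM minus EtOH on each probe set of SERPINB1, SERPINB3 and SERPINB13, in siSTAT3 and siNEG cells at 24 and 4 h. Black diamonds are the main probe sets, and the other sets follow in order of mean signal. The 4 SERPINB1 sets run together, while the fainter SERPINB13 sets scatter between -2.35 and 4.52.

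SERPINB2, or plasminogen activator inhibitor 2, inhibits urokinase. The platform annotation gave it no probe set, and the values here come from the probe set that the study's supplementary tables pair with this gene. It moved against SERPINB3 and SERPINB4, being higher in siSTAT3 cells in all 4 settings. With TAM at 24 h it had 7039.9 and 7067 units in siSTAT3 cells, against 669, 861 and 605 units in siNEG cells, 10.0-fold higher (3.33, SE 0.22, adjusted p = 1.6e-08). With TAM at 4 h siSTAT3 cells had 16255, 17502 and 17096 units, against 6988, 5980.4 and 9151 units in siNEG cells (1.22, SE 0.20, adjusted p = 0.000747). With EtOH the difference was 1.25 at 24 h (SE 0.20, adjusted p = 0.00211) and 1.00 at 4 h (SE 0.20, adjusted p = 0.0091).

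TAM raised SERPINB2 in siSTAT3 cells at 24 h, with 7039.9 and 7067 units, against 2235, 1977 and 1880.4 units with EtOH (1.80, SE 0.22, adjusted p = 0.000248). In siNEG cells at 24 h TAM minus EtOH was -0.27 (SE 0.20, 95% interval -0.70 to 0.15), and the interaction was 2.07 (SE 0.30, adjusted p = 0.000393). The 4 h value of this interaction was 0.22 (SE 0.28, 95% interval -0.38 to 0.82). SERPINB2 also fell over time in vehicle: with EtOH, siNEG cells had 974, 1060.5 and 593 units at 24 h, against 4887, 4892 and 5723 units at 4 h (-2.60, SE 0.20, adjusted p = 4.59e-07), and siSTAT3 cells differed by -2.35 (SE 0.20, adjusted p = 8.42e-07). No array of the 24 h EtOH groups overlapped with the 4 h EtOH groups.

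**Figure D4:**
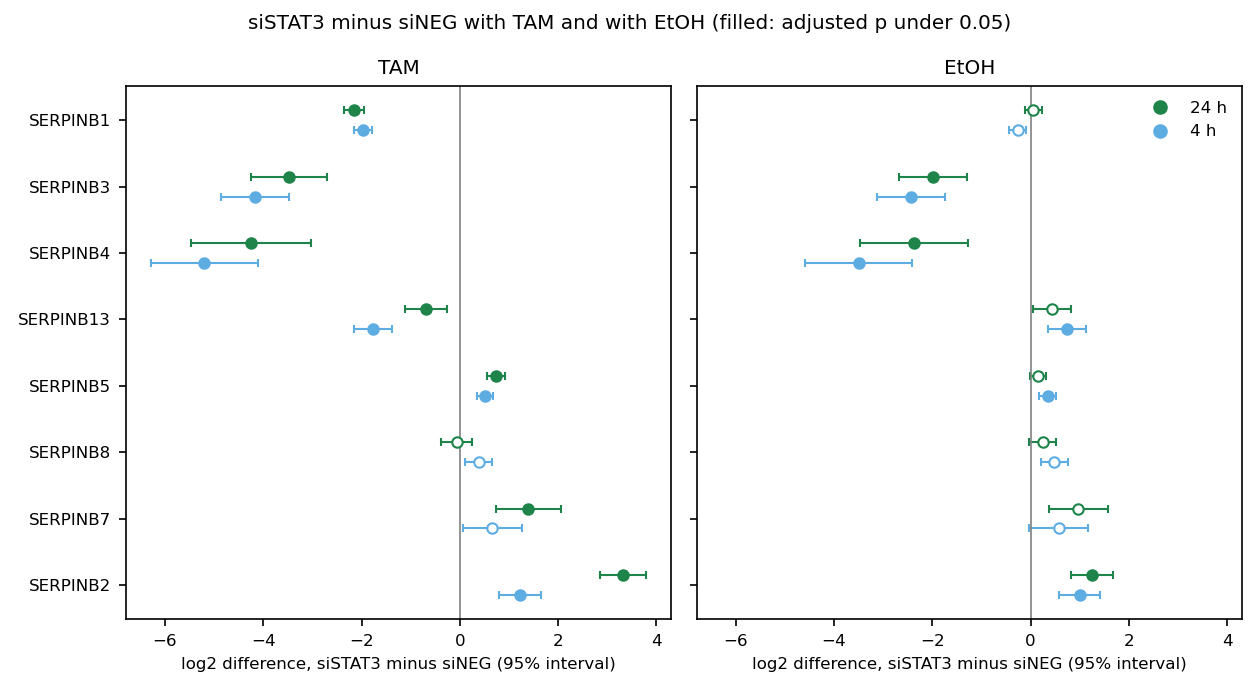
Log2 difference of siSTAT3 minus siNEG with its 95% interval for each gene, with TAM on the left and EtOH on the right, and 24 h in green above 4 h in blue. Filled points passed an adjusted p of 0.05. SERPINB3 and SERPINB4 are lower with siSTAT3 under both treatments, SERPINB1 and SERPINB13 are called lower in the TAM panel and not in the EtOH panel, and SERPINB2 is higher in both. SERPINB9 is not plotted.

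SERPINB5, or maspin, is a clade B serpin that does not inhibit proteases and is known as a tumor suppressor of mammary epithelium. Its differences on the main probe set were small. With TAM at 24 h it had 9962 and 11304 units in siSTAT3 cells, against 6439.8, 6749.9 and 5968 units in siNEG cells (0.73, SE 0.09, adjusted p = 1.68e-05), and at 4 h the difference was 0.51 (SE 0.08, adjusted p = 0.00043). In siNEG cells at 24 h TAM went with lower signals, at 6386 ± 394 units, against 8501 ± 703 units with EtOH (SD, n = 3 each), a difference of -0.41 (SE 0.08, adjusted p = 0.00191). The siSTAT3 value at 24 h was 0.17 (95% interval -0.01 to 0.36), and the interaction was 0.59 (SE 0.12, adjusted p = 0.00742). The interaction was not called at the limits of the study's methods, nor without replicate 3 of siSTAT3 TAM at 24 h, where it was 0.49. As the mean of the 2 probe sets it was 0.50 and was not called. For siSTAT3 minus siNEG with TAM the fainter set gave a called 1.18 at 4 h and an uncalled 0.36 at 24 h. Its value for TAM in siNEG cells at 24 h was -0.35, not called. With EtOH in siSTAT3 cells, 24 h minus 4 h was -0.46 on the main and -1.19 on the fainter set, both called.

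SERPINB8 can inhibit the proprotein convertase furin in the test tube. In siNEG cells at 24 h it had 1003, 1118 and 897 units with TAM, against 622, 622 and 536 units with EtOH, and the difference of 0.76 (SE 0.13) passed with an adjusted p of 0.000647. In siSTAT3 cells it had 939.6 and 977 units with TAM, against 759, 851 and 533 units with EtOH, a difference of 0.45 (SE 0.15, 95% interval 0.14 to 0.76, adjusted p = 0.164). The interaction was -0.31 (95% interval -0.72 to 0.10), so a difference between the 2 kinds of cell was not established. With the mean of the 2 probe sets of SERPINB8 the siNEG difference was 0.32 and was not called. With EtOH its signals were lower at 24 h than at 4 h, by -0.69 in siNEG cells (SE 0.13, adjusted p = 0.00233) and -0.94 in siSTAT3 cells (SE 0.13, adjusted p = 0.00013). Its fainter probe set gave 0.11 in siNEG and 0.68 in siSTAT3 cells, neither called, and as the mean of both sets the values were -0.29 and -0.13 and were not called.

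SERPINB7, or megsin, is a serpin of kidney mesangium and skin. With TAM at 24 h it had 275 and 311 units in siSTAT3 cells, against 114, 112 and 106 units in siNEG cells (1.40, SE 0.32, adjusted p = 0.00621). This was its only call in 14 comparisons, and it did not hold at the limits of the study's methods or without replicate 3 of siSTAT3 TAM at 24 h. With EtOH at 24 h the difference was 0.97 (SE 0.28, 95% interval 0.37 to 1.57, adjusted p = 0.112), with no overlap of arrays. SERPINB9, the inhibitor of granzyme B, had signals of 6.25 to 57.3 units on the 23 arrays and was called in 0 of 14 comparisons, with 0 of them at an unadjusted p under 0.05.

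Counted over the 8 members with a main probe set, the calls stand beside the share of all 19775 genes called in the same direction. In siNEG cells at 24 h TAM raised 5 members (SERPINB1, SERPINB3, SERPINB4, SERPINB8 and SERPINB13) and lowered 1 (SERPINB5), where 6.06% of all genes rose and 9.31% fell. At 4 h 4 rose and 0 fell, where 1.67% of all genes rose and 1.58% fell. In siSTAT3 cells at 24 h 3 rose (SERPINB1, SERPINB3 and SERPINB4), where 2.00% of all genes rose. At 4 h in siSTAT3 cells 0 of 8 were called by limma, where 0.819% of all genes were called in either direction. An unadjusted limma p under 0.05 was reached by 4 of the 8, and the share of all genes at that limit was not counted. The median difference of the members was 1.17 at 24 h and 1.13 at 4 h in siNEG cells, beside -0.04 and -0.06 over all genes, and 1.06 at 24 h and 0.41 at 4 h in siSTAT3 cells, beside -0.01 and -0.02. SERPINB3 and SERPINB4 are counted as separate members, although their shares in these signals cannot be told apart. The SERPINB8 rise was not called as the mean of its probe sets. The members were picked with such values known, so these counts describe them and do not test the clade.

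With TAM at 24 h siSTAT3 against siNEG gave 4 lower members (SERPINB1, SERPINB3, SERPINB4 and SERPINB13) and 2 higher (SERPINB5 and SERPINB7), where 6.77% of all genes were lower and 9.72% higher. At 4 h the same 4 were lower and SERPINB5 was higher, where 4.61% of all genes were lower and 4.69% higher. With EtOH SERPINB3 and SERPINB4 were lower at both times, where 1.46% of all genes were lower at 24 h and 2.41% at 4 h, and at 4 h SERPINB5 and SERPINB13 were higher, where 1.88% of all genes were. The SERPINB5 value was 0.35 (SE 0.08, adjusted p = 0.021), and without any of 5 single arrays it was not called (0.32 to 0.36). The interaction was negative for SERPINB1 and SERPINB13 at both times, where 2.49% of all genes were called lower at 24 h and 0.329% at 4 h, and positive for SERPINB5 at 24 h, where 3.42% of all genes were. SERPINB1 and SERPINB13 thus differed from SERPINB3 and SERPINB4 in which comparison was called, and a difference between the genes themselves was not tested.

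Over time in EtOH, 24 h against 4 h gave 1 higher member (SERPINB13) and 1 lower (SERPINB8) in siNEG cells, where 6.82% of all genes were higher and 5.52% lower. The SERPINB13 value was 0.69 (SE 0.18, adjusted p = 0.0237), was not called without any of 4 single arrays (0.58 to 0.69), and was -0.0658 as the mean of all its probe sets. In siSTAT3 cells SERPINB1 was higher, by 0.54 (SE 0.09, adjusted p = 0.000421) on its main probe set, and SERPINB5 and SERPINB8 were lower, where 8.14% of all genes were higher and 5.28% lower. The SERPINB1 rise was called on 1 of its 4 probe sets, which ran between -0.52 and 0.54, and as their mean it was 0.0888 and not called. The TAM effect at 24 h minus that at 4 h was positive for SERPINB1 and negative for SERPINB13 in siNEG cells, where 2.97% of all genes were called higher and 2.62% lower. In siSTAT3 cells it was positive for SERPINB1 alone among the members, where 0.420% of all genes were called higher. For SERPINB4 in siNEG cells this value was 2.69 (SE 0.73, 95% interval 1.14 to 4.24) with an adjusted p of 0.0526, and for SERPINB3 it was 1.36 (SE 0.46, 95% interval 0.38 to 2.34, adjusted p = 0.141).

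Of the other clade B genes, SERPINB10, SERPINB11 and SERPINB12 were measured and averaged at most 48.4, 45.2 and 27.2 units in any group, and 0 of the 3 were called by limma in the 14 comparisons, with 2 values of SERPINB10 at an unadjusted p under 0.05. Serpins of other clades are mostly secreted. Of 19 measured, 3 rose with TAM in siNEG cells at 24 h, where 6.06% of all genes rose, and 2 at 4 h, where 1.67% rose, and 0 were called lower by limma. SERPINA1, an inhibitor of neutrophil elastase, averaged 19290.3 ± 830.0 units with TAM at 24 h and 2119 ± 426 units with EtOH in siNEG cells (SD, n = 3 each), a difference of 3.20 (SE 0.14, adjusted p = 6.26e-11), and its interaction was -2.80 (SE 0.20, adjusted p = 3.02e-07). SERPINA3, an inhibitor of cathepsin G, and SERPINE2, an inhibitor of thrombin and urokinase, rose by 1.89 (SE 0.11, adjusted p = 2.08e-09) and 1.96 (SE 0.07, adjusted p = 1.04e-11) at 24 h. Their 24 h interactions were -1.59 for SERPINA3 and -1.76 for SERPINE2, and both were called.

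Of 17 measured proteases that clade B serpins inhibit, 4 rose and 2 fell with TAM in siNEG cells at 24 h, and 2 rose and 1 fell at 4 h. Over all genes 6.06% rose and 9.31% fell at 24 h, and 1.67% rose and 1.58% fell at 4 h. The protease medians were 0.30 at 24 h and -0.01 at 4 h, beside -0.04 and -0.06 over all genes. CTSL, a target of SERPINB3 and SERPINB13, averaged 24207 ± 476 units with TAM and 4621 ± 166 units with EtOH in siNEG cells at 24 h (SD, n = 3 each), a difference of 2.39 (SE 0.09, adjusted p = 3e-11) with an interaction of -2.13 (SE 0.14, adjusted p = 8.6e-08). GZMB, the target of SERPINB9, averaged 1519 ± 24.1 units with TAM and 8.01 ± 1.92 units with EtOH in the same cells at 24 h, and 33.5 ± 18.9 units with TAM in siSTAT3 cells (SD, n = 2), with an interaction of -6.25 (SE 1.03, adjusted p = 0.00122). Its low values are near the floor of the array, so the size of that difference is uncertain. PLAU, urokinase and the target of SERPINB2, was higher in siSTAT3 cells as SERPINB2 was: siSTAT3 minus siNEG with TAM was 1.62 at 24 h (SE 0.14, adjusted p = 4.73e-07) and 1.13 at 4 h (SE 0.13, adjusted p = 1.9e-05). ELANE, CTSG and PRTN3, the neutrophil targets of SERPINB1, averaged at most 20.6, 56.9 and 19.3 units in any group.

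Genes next to the serpin clusters were counted too. Of 7 measured neighbors of the chromosome 18 cluster, 1 rose and 0 fell with TAM in siNEG cells at 24 h, where 6.06% of all genes rose and 9.31% fell. The gene that rose was KDSR, a sphingolipid enzyme, with 0.74 (SE 0.07, adjusted p = 1.9e-06). The median over the 7 neighbors was 0.03, beside -0.04 over all genes. Of 15 measured neighbors of the chromosome 6 serpins, 4 rose and 1 fell at 24 h with a median of 0.24, where 6.06% of all genes rose, 9.31% fell and the median was -0.04, and the largest rise was 2.45 (SE 0.14, adjusted p = 2.38e-09) for FOXQ1, a forkhead transcription factor. As clade B serpins are abundant in squamous epithelium, markers of keratinocyte differentiation were set beside them: with TAM in siNEG cells at 24 h 4 of 7 fell and 0 rose, where 9.31% of all genes fell, and the summed signal was 4764 to 5413 units with TAM, against 8021 to 10109 units with EtOH. With TAM at 24 h it was 10655 to 11067 units in siSTAT3 cells. Of the 7 markers 3 reached 100 units in a group, so the 4 calls include low signals. SPRR1B, a cornified envelope protein, was higher in siSTAT3 than siNEG cells with TAM at 24 h by 3.07 (SE 0.20, adjusted p = 9.19e-09), in the direction of SERPINB2 and opposite to SERPINB3. The part of such markers in the serpin values was not tested.

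The genes whose 8 group means ran most like those of a member are given as a description, by Pearson's r of mean log2 signals over the 8 groups, among 11655 genes that reached 100 units in a group. SERPINB3 and SERPINB4 were each other's closest gene with r = 0.993, and RRAGC came next for both. STC1 came first for SERPINB1 with 0.994, RASSF3 for SERPINB5 with 0.992, AFF1 for SERPINB7 with 0.979, ATP2A2 for SERPINB8 with 0.988 and TM4SF1 for SERPINB13 with 0.961. Among the members SERPINB1 ran with SERPINB4 at 0.926 and with SERPINB13 at 0.791, and SERPINB2 ran with SERPINB5 at 0.908 and against SERPINB1 at -0.44. The points share arrays and groups, and 8 group means are few.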

How the data were processed

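RNA of 23 samples had been labelled and hybridized to Affymetrix Human Genome U133 Plus 2.0 arrays. Per the labels, the authors background corrected, normalized and summarised the probes with the MAS5 algorithm and deposited intensity values on a linear scale, 1 per probe set and array. The scaling target and the version are not given in the sources used here. Genes were named from the platform annotation: 41097 of the 54675 probe sets carry 1 symbol, 1801 several and 11777 none. Signals were log2 transformed with nothing added and fitted with limma (version 3.58.1 in R 4.3.3), using 1 mean per group over all arrays, without a filter, with 15 residual and 1.27 prior degrees of freedom. The moderated test is two-sided. Intervals cover 95%. The number of arrays limits the precision. Over the 24557 probe sets with a mean log2 signal of at least log2 100, 2 arrays of a group differed by 0.157 to 0.228 in mean absolute log2 value. Fainter probe sets were left out of that value. The fit was tested on simulated data.

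The 14 comparisons are TAM against EtOH, siSTAT3 against siNEG, 24 h against 4 h in EtOH, and the differences of TAM effects. All members are described by their main probe set. Members and gene lists (other serpins, target proteases, chromosomal neighbors, cell type markers) were chosen with earlier results of these data known. Likeness named the 3 genes with the highest r per member, of which the first is printed, with the next for SERPINB3 and SERPINB4. Replicate numbers were not used as pairs: 18 of 77 same-numbered array pairs had correlated deviations above 0.1. The 8 alternatives were quantile normalization, 50 units added, a filter on low signals, only the groups compared, a trended and robust variance, a replicate block, the limits of the study's methods, and the mean of all probe sets of a gene, and each array was left out in turn. Promoter windows are from RefSeq on GRCh38.p14, and all 9 genes matched.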

Additional observations from a re-analysis of the deposited data

Results flagged for a closer look

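TAM effects that differed between siSTAT3 and siNEG cells, or between 24 and 4 h, by the test of the difference itself were singled out. Between siSTAT3 and siNEG cells these were SERPINB1 with -2.21 at 24 h and -1.70 at 4 h, SERPINB13 with -1.12 at 24 h and -2.50 at 4 h, SERPINB5 with 0.59 at 24 h and SERPINB2 with 2.07 at 24 h, all on the log2 scale with adjusted p below 0.05. Between 24 and 4 h these were SERPINB1 with 1.39 in siNEG cells and 0.88 in siSTAT3 cells, and SERPINB13 with -1.41 in siNEG cells. As the mean of all probe sets, SERPINB13 had -1.63 between siSTAT3 and siNEG cells at 4 h and -0.33 between 24 and 4 h. SERPINB5 had 0.50 at 24 h as that mean, and none of these means was called. No group held more than 3 arrays, so single arrays that stand apart were not tested as outliers.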

How the results depend on the processing

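Of 51 called single-gene results and 20 others reported by value, 486 of the values under an alternative kept their direction and side of the threshold, 44 were no longer called, 25 became called and 3 changed sign. The changes of sign came with the mean of all probe sets of a gene: SERPINB13 had -0.24 for TAM in siSTAT3 cells at 24 h and -0.0658 for 24 h against 4 h with EtOH in siNEG cells, and SERPINB1 had -0.0615 for siSTAT3 against siNEG with EtOH at 24 h. With 1 array left out this SERPINB1 value ran between -0.00976, without replicate 3 of siNEG EtOH at 24 h, and 0.126. The cause was not tested.

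Counts of called members out of 8 moved as follows. For TAM in siSTAT3 cells at 4 h (0 called) there were 2 with the filter on low signals, 2 with 50 units added, 3 with the trended variance and 1 with the replicate block. At 24 h (3 called) there were 0 with only the groups compared. For siSTAT3 with EtOH at 4 h (4 called) there were 2 with only the groups compared and 2 at the study's limits, and at 24 h (2 called) there were 0 and 1. The interaction at 24 h (3 called) gave 5 with 50 units added, 1 with only the groups compared and 1 at the study's limits, and at 4 h (2 called) 4 with 50 units added and 1 with the mean of probe sets. For 24 h against 4 h with EtOH in siNEG cells (2 called) there were 4 with the filter, 4 with the trended variance, 0 with only the groups compared, 1 at the study's limits and 1 with the mean of probe sets. In siSTAT3 cells (3 called) there were 0 with only the groups compared and 1 with the mean of probe sets. The TAM effect at 24 h minus 4 h gave 4 in siNEG cells (2 called) with the filter, the trended variance or only the groups compared, and in siSTAT3 cells (1 called) 2 with 50 units added and 0 with only the groups compared. Fits of only the groups compared have fewer arrays.

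With 1 array left out, counts ran from 0 to 2 for TAM in siSTAT3 cells at 4 h, 2 to 5 and 1 to 2 for siSTAT3 with EtOH at 4 and 24 h, 1 to 3 for the interaction at 24 h, 1 to 3 for 24 h against 4 h in siNEG cells, and 2 to 4 in siNEG and 1 to 3 in siSTAT3 cells for the TAM effect at 24 h minus 4 h. Counts also ran from 4 to 6 for siSTAT3 against siNEG with TAM at 24 h and from 5 to 6 at 4 h. The interaction at 4 h ran from 2 to 3, and 24 h against 4 h with EtOH in siSTAT3 cells from 3 to 4. Without replicate 1 of siSTAT3 EtOH at 24 h, TAM in siSTAT3 cells at 4 h gave 2 calls. With the block SERPINB13 was no longer called for siSTAT3 against siNEG with TAM at 24 h (-0.68), and no other count moved by over 1.5 times. The labels do not say what same-numbered arrays share. The median correlation was 0.04 between same-numbered arrays and -0.02 between others, which does not settle whether they share a day or batch. Signals near the floor limit SERPINB9, the faint SERPINB13 probe sets, and SERPINB4 in siSTAT3 EtOH cells.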

Other observations

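A probe set assigned to both SERPINB3 and SERPINB4 was not used by the rule. In siNEG cells at 24 h it averaged 26529 ± 637 units with TAM and 591 ± 170.5 units with EtOH (SD, n = 3 each), a log2 difference of 5.53 (SE 0.45, adjusted p = 1.76e-07), which lies between those of the main probe sets of SERPINB3 and SERPINB4. With EtOH, siSTAT3 minus siNEG was -2.18 at 24 h (SE 0.45, adjusted p = 0.0144) and -2.87 at 4 h (SE 0.45, adjusted p = 0.00117). Its interactions, -1.79 at 24 h and -1.84 at 4 h, were not called, with adjusted p of 0.195 and 0.413.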
